A study of Mus musculus with 6 samples.

Results

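The mitochondrial ribosomal protein genes are the nuclear genes that encode the protein subunits of the ribosome inside mitochondria. They were taken as every row of the count tables whose symbol is Mrpl or Mrps followed by a number. This rule uses names only and gave 77 of the 24411 gene symbols, 48 named for the large subunit (Mrpl) and 29 named for the small subunit (Mrps), and all 77 passed the filter on low counts. The RNA came from the cochlear sensory epithelium of mice at postnatal day 9 (P9). In the Kir2.1-OE group, mice carried Otof-rtTA and tetO-Kir2.1-IRES-tau-lacZ, both heterozygous, so that DOX switched on the inward-rectifier potassium channel Kir2.1. The control group were littermates heterozygous for Otof rtTA without the Kir2.1 transgene. Both lines were on a C57BL/6N background and both groups drank water with DOX (0.5 mg/ml). The Otof promoter is active mainly in inner hair cells (IHCs), whereas each pool held the whole sensory epithelium, 8 cochleae from 4 mice, so most RNA came from cells that should not express the transgene. There were 3 pools in each group. In bulk tissue, fewer cells of a type and less RNA per cell cannot be told apart.

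The mitochondrial ribosome (mitoribosome) translates the few messages of the mitochondrial genome, all of them for subunits of the respiratory chain and ATP synthase. Its RNAs are made inside the organelle, but every one of its proteins is encoded in the nucleus, translated by the cytosolic ribosome and imported. The small subunit binds the message and reads its codons, and the large subunit joins the amino acids and releases the chain through an exit tunnel. Hair cells of the immature cochlea fire calcium action potentials and depend on mitochondria for ATP and for calcium handling, which is one reason to look at this machinery when their activity is altered.

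The targeted gene followed the labels. Kcnj2, which encodes Kir2.1, stood at 3612, 3813 and 2213 normalized counts in the Kir2.1-OE pools (replicates 1, 2 and 3 in this order throughout), whereas the control pools had 235.8, 228.1 and 226.0 (log2 fold change 3.80 ± 0.20 SE, adjusted p = 7.0e-05, edgeR quasi-likelihood test). The assigned reads ranged from 35430940 to 41205047 per pool. Normalized counts are counts scaled to a common library size with edgeR's trimmed mean of M-values (TMM), and they are not divided by gene length unless stated. A difference of the whole series bears on everything below. Across 15192 genes with a known length, the log2 fold change correlated with transcript length (Spearman's rho 0.58 across genes, which are not independent replicates and share the same 6 libraries), with short transcripts lower and long transcripts higher in Kir2.1-OE.

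The RNA of the mitochondrial ribosomal proteins was lower in Kir2.1-OE. Summed over the 77 genes, the normalized counts were 76517, 83406 and 86524 in the Kir2.1-OE pools and 111026, 107574 and 109447 in the control pools, that is 82149 ± 5120 against 109349 ± 1728 (SD, n = 3 each). The lowest control pool lay above the highest Kir2.1-OE pool. The median gene stood at 76.3% of its control mean, a log2 fold change of -0.39, where the median over all 15303 genes tested was 0.01. All 77 genes had a log2 fold change below 0, against 49.2% of all genes tested, and they ranged from -0.80 for Mrps18c to -0.14 for Mrpl35.

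At an adjusted p under 0.05, 68 of the 77 genes fell, against 23.5% of all genes tested, and 0 rose, against 27.3%. None was higher at an unadjusted p under 0.05 either, whether by edgeR, by DESeq2 or by limma-voom. With the further requirement of a change above 1.5-fold, 9 genes were called lower, against 5.08% of all genes tested, and 0 were called higher, against 15.5%. Of the 77 log2 fold changes, 40 lay between -0.5 and -0.3, short of the 1.5-fold limit. The count was sensitive to single pools and rose to 14 without Kir2.1-OE replicate 2 and to 16 without Kir2.1-OE replicate 3. Without Kir2.1-OE replicate 1, by contrast, only 6 of the 9 were still called lower. When a change above 0.6 on the log2 scale was itself the tested hypothesis, 1 gene, Mrps18c, passed, just under the limit (adjusted p = 0.04999, glmTreat). Over all 15303 genes tested, 57 passed as lower and 832 as higher. The 3 pools of each group did not overlap, with Kir2.1-OE lower, for 73 of the 77 genes, against 29.9% of all genes tested. The 4 others were Mrps36, Mrps18a, Mrps5 and Mrpl35.

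**Figure D1:**
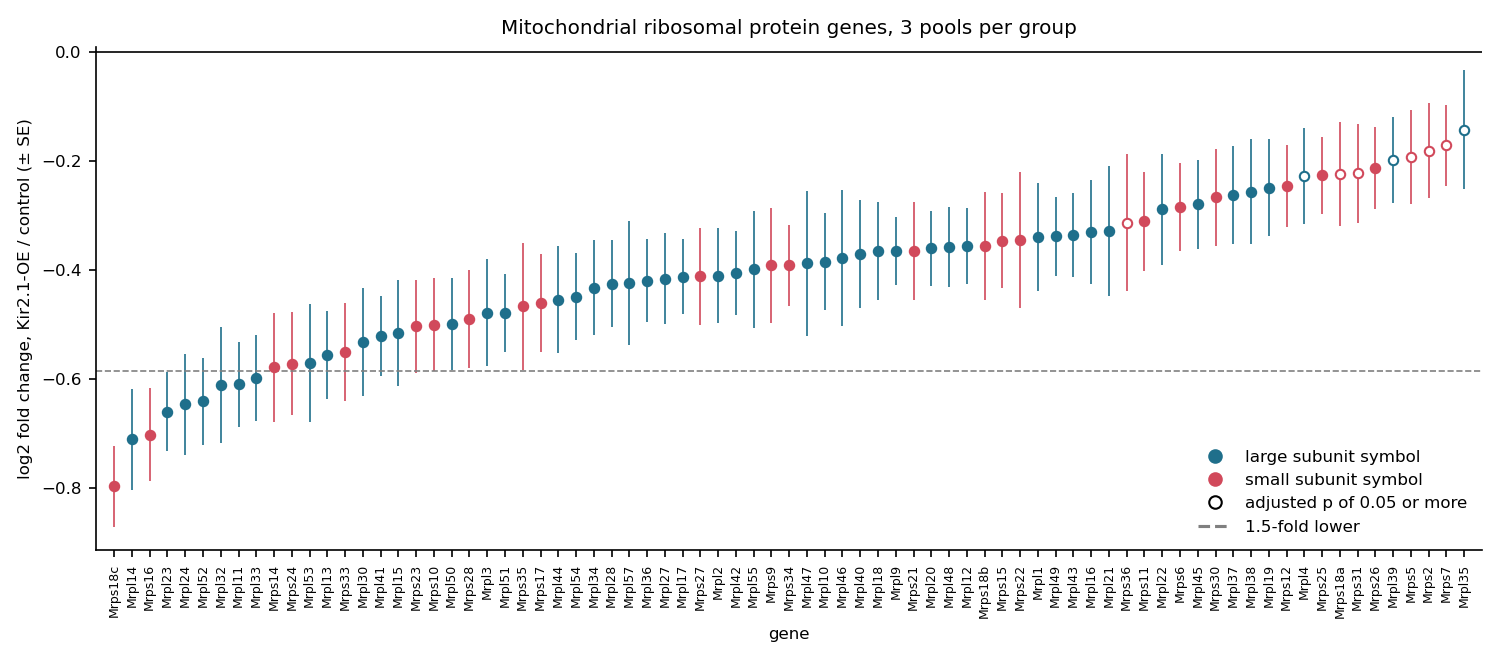
Log2 fold change (Kir2.1-OE against control, ± SE, 3 pools per group) of each of the 77 genes, in ascending order, coloured by the subunit in the symbol, with open circles for an adjusted p of 0.05 or more and a dashed line at 1.5-fold lower. Every point lies below 0, 9 genes lie past the dashed line, and the 9 open circles gather at the small end of the change.

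The pools differed among themselves. The median of the genes, as a log2 difference from the control mean, was -0.49, -0.38 and -0.32 in the Kir2.1-OE pools, compared with 0.03, -0.02 and 0.00 in the controls. Kir2.1-OE replicate 1 was the lowest of its group for 59 of the 77 genes, and replicate 3 was the highest for 48. In replicates 1 and 2 all 77 genes were below every control pool, and in replicate 3 this held for 73. The spread was modest for single genes, with a median coefficient of variation of 7.96% over the Kir2.1-OE pools and 4.53% over the control pools, and the largest values were 18.1% for Mrps36 in Kir2.1-OE and 13.1% for Mrpl44 in control.

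The gene that fell most was Mrps18c, which encodes bS18m of the small subunit (GRCm38 chromosome 5, 100798627 to 100804471, plus strand). It had 656.9, 647.5 and 671.7 normalized counts in Kir2.1-OE and 1170, 1127 and 1138 in control. The groups were far apart relative to their spread, with a log2 fold change of -0.80 ± 0.07 (SE, adjusted p = 1.5e-04, edgeR). Mrpl14 (uL14m, a protein of the face where the subunits meet, chromosome 17, 45686322 to 45698495, plus strand) had 958.7, 1125 and 1076 normalized counts against 1793, 1550 and 1831 in control, a log2 fold change of -0.71 ± 0.09. It overlaps Tmem63b on the opposite strand, and since no strand setting is stated, reads of the overlap cannot be told apart; Tmem63b itself rose. Mrps16 (bS16m, chromosome 14, 20389304 to 20393634, minus strand) had 678.5, 742.5 and 788.1 normalized counts against 1236, 1143 and 1215, a log2 fold change of -0.70 ± 0.08.

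Mrpl23 and Mrpl24 encode uL23m and uL24m, which line the mouth of the exit tunnel. Mrpl23 (chromosome 7, 142532686 to 142540747, plus strand) had 1053, 1168 and 1148 normalized counts in Kir2.1-OE and 1802, 1722 and 1801 in control, a log2 fold change of -0.66 ± 0.07. Mrpl24 (chromosome 3, 87919506 to 87923672, plus strand) had 982.3, 1096 and 1214 against 1797, 1602 and 1758, a log2 fold change of -0.65 ± 0.09. The groups did not overlap for either gene. The other 4 genes called lower were Mrpl52, Mrpl32, Mrpl11 and Mrpl33, with log2 fold changes from -0.64 to -0.60. Of the 9 called genes, 7 carried a large subunit symbol, as did 48 of all 77 genes, and the shares were not compared by a test.

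At the other end, Mrpl35 (bL35m, chromosome 6, 71812997 to 71826969, minus strand) had 550.2, 545.6 and 680.2 normalized counts in Kir2.1-OE and 629.1, 638.8 and 691.1 in control. These groups overlapped and the log2 fold change of -0.14 ± 0.11 did not pass (adjusted p = 0.31, edgeR). Mrps7 (uS7m, a protein of the head of the small subunit) had 1352, 1508 and 1463 against 1654, 1672 and 1539, with a log2 fold change of -0.17 ± 0.07. Mrps2 (uS2m) had 872.4, 930.3 and 861.1 against 1107, 956.8 and 955.8, with a log2 fold change of -0.18 ± 0.09. Neither passed, although in both every Kir2.1-OE pool was below every control pool. Mrps5 (uS5m, at the entry of the message channel) had 978.2, 983.3 and 1114 against 1231, 1191 and 1089, with a log2 fold change of -0.19 ± 0.09, and Mrpl39 (mL39) had 802.7, 797.4 and 853.7 against 979.2, 932.2 and 901.8, with a log2 fold change of -0.20 ± 0.08. The remaining genes that did not pass were Mrps36, Mrpl4, Mrps18a and Mrps31, at -0.31 to -0.22.

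Large and small subunit genes were lower by similar amounts. At an adjusted p under 0.05, 45 of the 48 large subunit genes and 23 of the 29 small subunit genes fell, against 23.5% of all genes tested. The median log2 fold change was -0.41 for the large and -0.36 for the small subunit, a difference of -0.05 that became -0.030 without control replicate 3. Per pool, the large minus small difference in median was -0.07, -0.07 and -0.06 in Kir2.1-OE and -0.00, -0.03 and 0.02 in control. The summed large subunit counts were 1.84, 1.83 and 1.85 times the summed small subunit counts in Kir2.1-OE and 1.94, 1.88 and 1.93 times in control. In both measures the groups did not overlap, with the large subunit relatively lower in Kir2.1-OE, but the difference is small beside the shared decrease. It also rested on the gene names.

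A symbol does not always give the place in the assembled particle. Mrps30 (mL65) and Mrps18a (mL66) sit in the large subunit despite their small subunit symbols, and Mrps36 is now placed in the 2-oxoglutarate dehydrogenase complex rather than in the mitoribosome. All 3 were lowered less than the median gene of the group. Mrps30 had 897.1, 910.4 and 1006 normalized counts in Kir2.1-OE against 1227, 1045 and 1113 in control, and fell by 0.27 on the log2 scale. Mrps18a had 993.6, 1018 and 1239 against 1295, 1270 and 1228, with overlapping groups and a log2 fold change of -0.22 ± 0.10 that did not pass. Mrps36 had 559.4, 659.5 and 801.9 against 857.8, 793.2 and 859.1, also overlapping, with a log2 fold change of -0.31 ± 0.13 that did not pass. With genes assigned by the assembled structure, 46 of 50 large subunit genes and 22 of 26 small subunit genes fell, against 23.5% of all genes tested. The medians were then -0.40 and -0.38, and the difference shrank to -0.024. The ratio of summed counts was then 2.097, 2.082 and 2.139 in Kir2.1-OE and 2.201, 2.124 and 2.177 in control, and the groups overlapped.

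The 3 Mrps18 paralogs encode relatives of the same bacterial protein and spanned nearly the whole range. Mrps18c stood at the low extreme, as given above. Mrps18b (mS40, small subunit) had 432.1, 422.7 and 498.3 normalized counts in Kir2.1-OE and 576.9, 576.1 and 578.2 in control, a log2 fold change of -0.36 ± 0.10 near the median of the group. Mrps18a, in the large subunit, did not pass. The difference between the paralogs was not tested, and their RefSeq transcripts were 638 nt (c), 1079 nt (b) and 884 nt (a) long. With offsets for the length and GC content of these transcripts, described below, the log2 fold changes were -0.27 for Mrps18c, which passed, and -0.01 for Mrps18b and 0.14 for Mrps18a, which did not.

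By descent, 27 genes encode proteins shared by all ribosomes (systematic names beginning with u), 19 encode proteins shared with bacteria (b) and 30 encode proteins found only in mitochondria (m). Their median log2 fold changes were -0.39, -0.41 and -0.37, and 23, 18 and 27 of them fell, against 23.5% of all genes tested. The medians lay within a few hundredths of each other, and no contrast between the classes was tested.

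Some genes were also grouped by their place in the particle, a choice made after the values were seen. At the stalk that recruits translation factors, Mrpl10, Mrpl11 and Mrpl12 had log2 fold changes of -0.38, -0.61 and -0.36. Around the peptidyl transferase centre, Mrpl2 and Mrpl3 stood at -0.41 and -0.48. Along the exit tunnel, Mrpl4, Mrpl22 and Mrpl45, the last of which anchors the particle to the inner membrane, stood at -0.23, -0.29 and -0.28, beside the larger changes of Mrpl23 and Mrpl24. In the small subunit, Mrps12 at the decoding centre stood at -0.25 and Mrps11 of the platform at -0.31. All of these passed at an adjusted p under 0.05 except Mrpl4.

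RNA levels of single subunits differed widely although each is needed once per particle in most cases. Divided by the length of the longest curated RefSeq transcript, control levels ranged from 4813 ± 193 normalized counts per kilobase for Mrpl52 (SD, n = 3) to 136 ± 4.88 for Mrpl47. After Mrpl52, the most abundant large subunit genes per kilobase were Mrpl20 at 2993 ± 44.1 and Mrpl33 at 2917 ± 102, whose ranges overlap. The most abundant small subunit genes were Mrps6 at 2432 ± 49.9, Mrps21 at 2380 ± 174 and Mrps34 at 2359 ± 96.6, which did not differ beyond their spread. The least abundant were Mrpl35 at 175 ± 8.98 in the large and Mrps26 at 233 ± 4.30 and Mrps35 at 217 ± 9.61 in the small subunit. Transcripts with a long annotated 3′ end come out low on this scale whether or not that end is used, as for Mrps25, which had the highest count of all (3262 ± 178 normalized counts in control) but 537 ± 29.3 per kilobase over a 6073 nt transcript.

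Of these abundant genes, Mrpl52 fell most. It had 1184, 1392 and 1294 normalized counts in Kir2.1-OE and 2070, 2046 and 1920 in control, a log2 fold change of -0.64 ± 0.08. Mrpl33 had 856.0, 930.3 and 975.4 against 1366, 1367 and 1451, with a log2 fold change of -0.60 ± 0.08. Mrpl20 had 1661, 1856 and 1828 against 2305, 2307 and 2247, with a log2 fold change of -0.36 ± 0.07. All 3 fell with no overlap between the groups. Mrps6, Mrps21 and Mrps34 fell by 0.28, 0.36 and 0.39 on the log2 scale. The scarce Mrpl47, with 327.4, 303.8 and 416.8 normalized counts against 472.5, 439.8 and 458.0, fell by 0.39. Of the other scarce genes, Mrps35 fell by 0.47 and Mrps26 by 0.21, and Mrpl35 did not pass, so the genes of low level per kilobase included some of the smallest changes.

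Transcript length moved with this result. The median RefSeq transcript of the 77 genes was 1226 nt long, against 3051 nt over all genes tested. Of the 25 genes under 1000 nt, the median log2 fold change was -0.42 and 92.0% fell, where the 877 genes tested of that length had a median of -0.50 and 65.5% fell. From 1000 to under 2000 nt, the 29 genes had a median of -0.37, of which 89.7% fell, and the 3114 genes tested had -0.29, of which 44.9% fell. In these shorter classes the medians of the group and of all genes lay close together, although a larger share of the group passed. The medians lay further apart among longer transcripts: from 2000 to under 4000 nt, 15 genes had a median of -0.42 and 6200 genes tested had -0.02, and at 4000 nt or more, 8 genes had a median of -0.30, of which 87.5% fell, and 5001 genes tested had 0.41, of which 6.04% fell. These classes rest on the longest curated transcript, and gene-level counts do not show whether its 3′ end was used. Mrpl17, with a curated transcript of 7300 nt, had 1799, 2006 and 1934 normalized counts in Kir2.1-OE and 2489, 2514 and 2633 in control. Its log2 fold change was -0.41 ± 0.07. The median of its annotated transcripts was only 869 nt. With the offsets described below it stood at -0.82 on the RefSeq transcript and at -0.26 on the median transcript. Most other genes of 4000 nt or more also had a far shorter median transcript. Among the 77 genes the log2 fold change correlated only weakly with RefSeq transcript length (Spearman's rho 0.27) and more with coding length (0.45), which has a median of 573 nt and does not include the 3′ ends. These are descriptions across genes of the same 6 libraries.

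**Figure D2:**
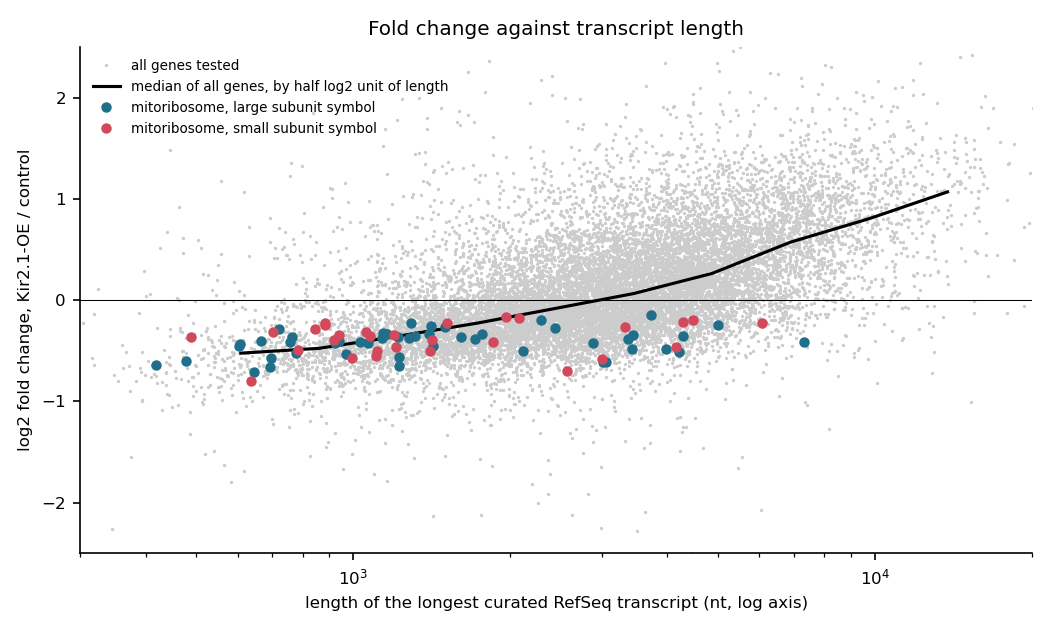
Log2 fold change (Kir2.1-OE against control) plotted against the length of the longest curated RefSeq transcript on a log axis, for all genes tested (grey; changes beyond 2.5 are not drawn), their running median (black line) and the large and small subunit genes. The black line crosses 0 near the middle of the length range, whereas the coloured points stay below 0 at every length, from -0.80 to -0.14.

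When the trend of the counts with transcript length and GC content was removed within each pool before the test (loess offsets), the decrease was smaller. With the longest annotated transcript of each gene, the median log2 fold change was -0.18, 69 of the 77 genes lay below 0, and 29 fell at an adjusted p under 0.05, against 19.9% of all genes tested. None rose, against 14.5%, and none was higher at an unadjusted p under 0.05. With the longest RefSeq transcript, the median was -0.13, where that of all genes was -0.05, and 22 of the 77 fell, against 19.3% of all genes tested. With the median transcript length per gene, the median was -0.36 and 62 fell, against 26.5% of all genes tested. The size of the decrease therefore depended on which transcript was taken as the one expressed, and this choice is not settled by gene-level counts. Of the 9 genes called lower without offsets, all 9 passed at an adjusted p under 0.05 with the longest transcript, but only Mrpl23 stayed past 1.5-fold, and Mrps18c moved to -0.32 (adjusted p = 0.011, edgeR). With the longest RefSeq transcript, 7 of the 9 passed and Mrps16 and Mrpl11 stayed past 1.5-fold, at -0.62 and -0.63. Mrpl33 then moved from -0.60 to -0.02 and Mrpl52 from -0.64 to -0.20, and neither passed (adjusted p = 0.88 and 0.088, edgeR). With the longest transcript, the genes named by rule that turned in sign were Mrpl20, Mrps6, Mrps21 and Mrps36. They moved to 0.095, 0.058, 0.11 and 0.19, without passing. The part of transcript length or RNA quality in the decrease was not tested beyond these offsets. The paper reports high RNA integrity scores for all samples, and these scores were not used here.

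**Figure D3:**
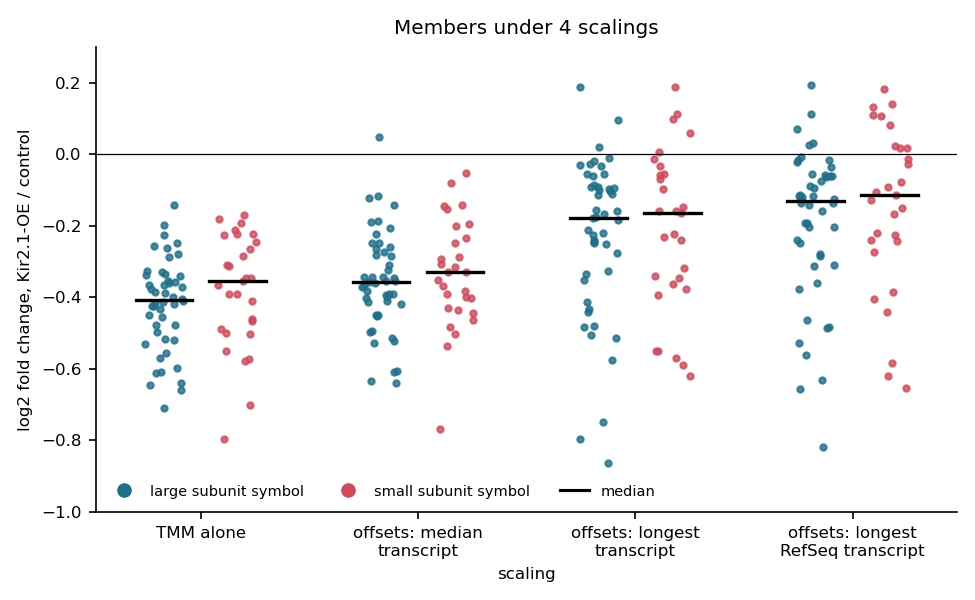
Log2 fold change of each of the 77 genes, split by subunit symbol, without offsets (TMM alone) and with length and GC offsets built on the median, the longest or the longest RefSeq transcript; black bars mark medians. The large subunit median moves from -0.41 without offsets to -0.18 with the longest transcript and -0.13 with the longest RefSeq transcript.

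The gene groups closest in function were lower as well, by different amounts. The cytosolic ribosomal protein genes, which build the ribosome of the cytoplasm, had a median log2 fold change of -0.79 over 83 genes tested, and all 83 fell, 76 of them past 1.5-fold. The nuclear genes for subunits of the respiratory chain and ATP synthase, the partners of the proteins that the mitoribosome makes, had a median of -0.52 over 75 genes, of which 69 fell and 23 did so past 1.5-fold. The mitochondrial ribosomal protein genes, at -0.39 and 9 past 1.5-fold, were the least lowered of these 3 groups. Over all genes tested, 23.5% fell and 5.08% fell past 1.5-fold. The median RefSeq lengths of the cytosolic, respiratory chain and mitochondrial ribosomal groups were 833, 838 and 1226 nt. The first 2 groups were thus almost equal in length but differed in median log2 fold change. The part of length in these differences was not tested. With length and GC offsets the medians were -0.46, -0.20 and -0.18. As a result, the summed counts of the mitochondrial ribosomal protein genes were 6.53%, 6.02% and 6.22% of those of the cytosolic genes in Kir2.1-OE and 4.54%, 4.95% and 5.03% in control, with no overlap between the groups. Against the respiratory chain genes the shares were 21.4%, 21.0% and 20.1% in Kir2.1-OE and 19.6%, 20.4% and 20.1% in control, which overlapped.

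**Figure D4:**
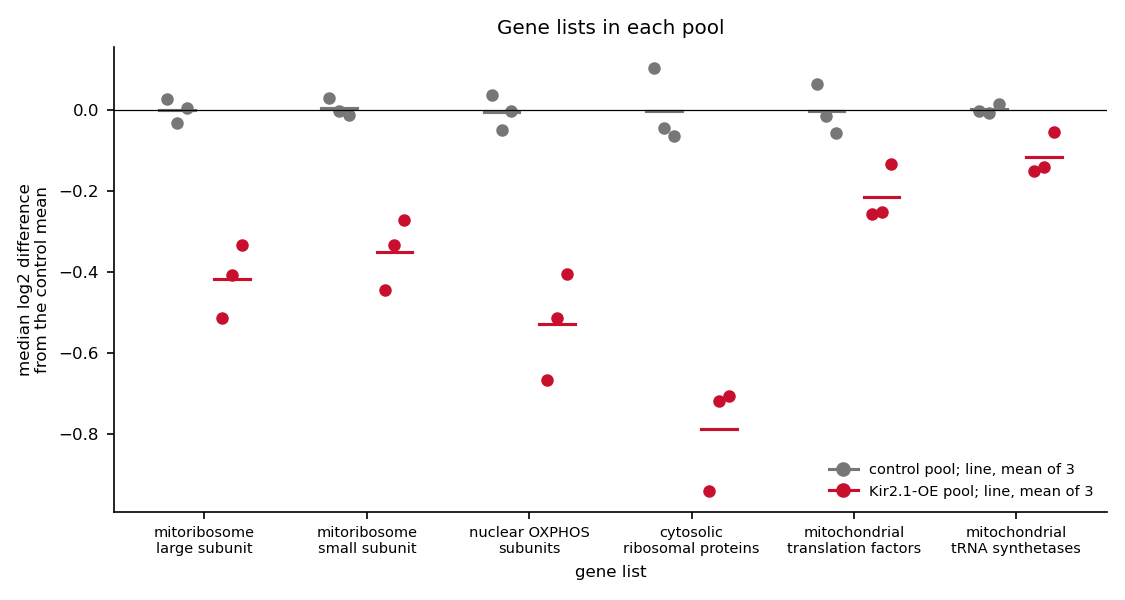
Median log2 difference from the control mean for 6 gene lists in each pool (dots, replicates 1 to 3 from left to right; lines, mean of 3 pools). The Kir2.1-OE medians of the large subunit genes (-0.51, -0.41 and -0.33) and small subunit genes (-0.45, -0.33 and -0.27) lie between those of the cytosolic ribosomal protein genes and those of the mitochondrial translation factors and tRNA synthetases.

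Other genes of mitochondrial gene expression changed less evenly. Of 5 mitoribosome subunits with other symbols, 3 fell, with a median log2 fold change of -0.25. Chchd1 (mS37) fell by 0.71 and Aurkaip1 (mS38) by 0.53, both short transcripts, and Dap3 (mS29), which is 4760 nt long, fell by 0.21. Ict1, the symbol under which the files list the large subunit protein mL62, fell by 0.37 on the log2 scale. Of 21 genes for mitoribosome assembly and rRNA modification, 12 fell and 1 rose, with a median of -0.36, beside 23.5% lower and 27.3% higher over all genes tested. The methyltransferase gene Tfb1m, which modifies the small subunit rRNA, fell by 0.59, and Mpv17l2 and Mtg2, which act on the large subunit, fell by 0.51 and 0.53. Mterf4, which brings the methyltransferase Nsun4 to the large subunit, was the one that rose, at 0.82 ± 0.12 on the log2 scale, while Nsun4 itself fell by 0.39.

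The factors that work on the finished mitoribosome were nearer to control without offsets. With offsets on the longest transcript they were only slightly nearer, and with RefSeq offsets they were not. Of 16 translation factors and related genes tested, 6 fell and 1 rose, with a median log2 fold change of -0.20. The elongation factor gene Tsfm fell by 0.42 and Slirp, which stabilizes mitochondrial messages, by 0.53, whereas the elongation factor gene Gfm1 rose by 0.25. The initiation factor genes Mtif2 and Mtif3 stood at 0.12 and -0.01 and did not pass. Of 22 genes for charging mitochondrial tRNAs, 4 fell and 2 rose, with a median of -0.12. Hars2 fell by 0.40, while Aars2 and Vars2 rose by 0.43 and 0.31. The counts of these last lists lay near or below the 23.5% lower and 27.3% higher of all genes tested, apart from the larger share of translation factors that fell. The assembly, factor and tRNA lists had longer transcripts than the mitochondrial ribosomal protein genes, with medians of 2014, 2606 and 3137 nt. With offsets on the longest transcript their medians were -0.24, -0.10 and -0.15, beside -0.18 for the mitochondrial ribosomal protein genes, and with RefSeq offsets they were -0.23, -0.13 and -0.16, beside -0.13.

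Regulators of mitochondrial transcription and biogenesis moved both ways, with 5 of 13 lower and 5 higher, beside 23.5% and 27.3% of all genes tested. Their median log2 fold change was 0.08. The balance depended on length, and the median transcript was 4153 nt long. With offsets on the longest transcript the median turned to -0.11 (5 lower, 1 higher, beside 19.9% and 14.5% of all genes tested). With the RefSeq transcript the median was -0.16 (6 lower, 1 higher, beside 19.3% and 12.7%). The values that follow are without offsets. Ppargc1a, the coactivator that promotes mitochondrial biogenesis, rose by 1.11 ± 0.19 on the log2 scale (834 ± 241 normalized counts in Kir2.1-OE, 385 ± 26.8 in control), and its relatives Ppargc1b and Pprc1 rose by 0.98 and 0.42. Tfam, which packages mitochondrial DNA and acts in its transcription, fell by 0.43, Tfb2m by 0.32 and Tefm by 0.74. The polymerase gene Polrmt rose by 0.41. The genes for the factors thought to drive many nuclear mitochondrial genes, Nrf1, Gabpa and Yy1, stood at 0.14, -0.01 and 0.08 and did not pass. Gabpb1, the partner of Gabpa, fell by 0.28.

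Binding sequences of those factors were looked for in RefSeq promoters (250 bases before to 50 after each start, GRCm38.p6), of which 74 matched 68 of the 77 genes. The letters were searched on both strands, and a palindromic stretch can hold an NRF1 match on each strand. The ETS core of GABPA, CCGGAAG, was in 33.8% of the 74 promoters, against 8.86% of all 32851 promoters and 15.1% of those of genes tested. The NRF1 core, GCGCATGC, was in 10.8%, against 2.71% and 4.62%. The YY1 core, AAGATGGCG, was in 10.8%, against 1.40% and 2.53%, and TATAAA was in 6.76%, against 13.6% and 7.53%. Cytosolic ribosomal protein promoters held the ETS core in 35.5% and the NRF1 core in 3.95%. Genes with and without a match had similar medians: the 25 genes with the ETS core had a median log2 fold change of -0.41 and the 43 without it had -0.38, and the 35 genes with any of the ETS, NRF1 and YY1 cores had -0.40 against -0.38 for the 33 without.

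A few of these matches are shown with the 10 bases on each side, where these precede the RefSeq start, on the gene's own strand and with the match in capitals. A match is a description of the letters and not a measured site. The first 3 are ETS matches of genes called lower. Then come NRF1 matches of Mrpl32 (1 of several) and Mrpl33, also called lower, and of Mrpl39, which did not pass. The YY1 matches of Mrpl36 and Mrps11 are last. The Mrps11 match lies in the start region shared with a neighbour. The Mrpl36 match lies at a RefSeq start downstream of the annotated gene start (73328513) that is close to Ndufs6.
Mrps18c, chr5:100798593-100798619, plus strand: ggtcacgtgaCTTCCGGcccgggaagc
Mrps16, chr14:20393548-20393574, minus strand: tgggggcgctCTTCCGGgcttcaggct
Mrpl52, chr14:54426852-54426878, plus strand: aagatgtcggCTTCCGGttttcccggc
Mrpl32, chr13:14613086-14613113, minus strand: agaggggcctGCGCATGCtctgagcgag
Mrpl33, chr5:31613929-31613950, plus strand: accggaacccGCGCATGCcccg
Mrpl39, chr16:84735352-84735379, minus strand: aaggagaggcGCGCATGCgcccccgcgt
Mrpl36, chr13:73330968-73330996, plus strand: cgtgaccttaCGCCATCTTtcttcctggc
Mrps11, chr7:78783013-78783041, plus strand: ctacgggcgcCGCCATCTTtctgtcttcc

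Many of these genes start head to head with another gene. A protein-coding gene on the opposite strand started within 1000 bases for 33 of the 77 genes (42.9%), against 14.5% of the 14632 protein-coding genes tested with a position. The mitochondrial ribosomal protein genes with such a neighbour had a median log2 fold change of -0.39 and those without one had -0.40. The neighbours themselves lay on both sides of 0 without offsets. Over the 29 tested neighbours that are not themselves in the group, the median was -0.01, 7 fell and 5 rose, beside 23.5% and 27.3% of all genes tested. With offsets the medians of both lay close together. With the longest transcript they were -0.14 for the neighbours and -0.16 for the genes beside them, and with the RefSeq transcript -0.12 and -0.13. With the longest transcript 6 neighbours were lower and 1 higher, beside 19.9% and 14.5% of all genes tested.

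The neighbours that fell were Psma2, Mitd1, Ndufs6, Ptcd2, Ndufb5, Tcp1 and Fau, with RefSeq transcripts of 568 to 2911 nt. Those that rose were Tmem63b, Ncapd2, Ppp1r10, Ighmbp2 and Gga3, with transcripts of 3284 to 5569 nt, so each of the latter was longer than each of the former. Mrpl49 and Fau, which start 59 bases apart and of which Fau encodes a cytosolic ribosomal protein, stood at -0.34 and -0.82. Mrpl36 and Ndufs6, a subunit of complex I, stood at -0.42 and -0.67. Mrps18c and the helicase gene Helq start 29 bases apart and stood at -0.80 and 0.31, the latter without passing. Mrpl51 and the condensin gene Ncapd2, whose starts lie 100 bases apart, stood at -0.48 and 0.40.

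In 1 case both neighbours belong to the group. Mrpl46 (mL46, chromosome 7, 78775236 to 78783531, minus strand) and Mrps11 (uS11m, chromosome 7, 78783119 to 78792989, plus strand) overlap by 412 bases at their starts. Mrpl46 had 484.5, 605.6 and 694.0 normalized counts in Kir2.1-OE and 788.6, 754.2 and 775.6 in control. Mrps11 had 575.8, 644.5 and 661.2 against 745.4, 766.9 and 821.4. They fell by 0.38 and 0.31 on the log2 scale, with no overlap between the groups, and reads of the shared stretch cannot be told apart without strand. In all, 23 of the 77 genes overlap a gene on the opposite strand. The 54 that do not had a median log2 fold change of -0.41, and 47 of them fell, against 23.5% of all genes tested.

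**Figure D5:**
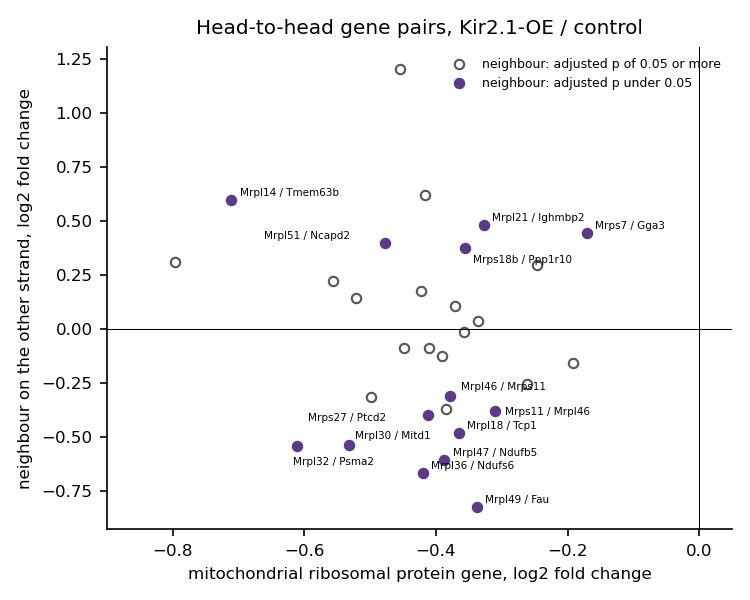
Log2 fold change of each mitochondrial ribosomal protein gene that starts within 1000 bases of a protein-coding gene on the opposite strand (x axis) and of that neighbour (y axis), Kir2.1-OE against control; filled circles mark neighbours with an adjusted p under 0.05. All points lie left of 0, between -0.80 and -0.17, while the neighbours outside the group spread to both sides of 0 with a median of -0.01; these values are without length and GC offsets, under which the neighbours' median is -0.14.

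Some markers of cell types differed between the groups at an adjusted p under 0.05. Of all genes tested, 23.5% were lower and 27.3% higher by this measure. The marker lists are short, and none was tested against these shares. Hair cell markers were present in every pool, and 3 of 4 inner hair cell markers and 2 of 5 general hair cell markers rose. All 4 glial markers rose, with summed normalized counts of 339591 to 450071 in Kir2.1-OE and 246523 to 317036 in control, as did 3 of 6 neuronal markers (16394 to 41732 against 8942 to 14225) and 2 of 5 cartilage and bone markers (644078 to 775595 against 287347 to 401837). By contrast 3 of 4 erythrocyte markers (7900 to 9757 against 12379 to 34158) and all 3 melanocyte markers (362 to 462 against 856 to 1055) fell. The erythrocyte marker Hbb-bs was at 0 in 3 of the 6 pools. Of the supporting cell markers 3 of 7 rose, of the outer hair cell markers 2 of 4, and of the macrophage markers 2 of 4, while 1 macrophage and 1 hair cell marker fell. These counts are without offsets. With offsets on the longest transcript, the inner hair cell median moved from 0.54 to -0.03, with 1 marker higher. The erythrocyte list then had 1 marker lower. The glial and neuronal lists had 3 markers higher each, and the cartilage and bone list had 1. All 3 melanocyte markers were still lower. With these offsets 19.9% of all genes tested were lower and 14.5% higher. The part of these cells in the level of the mitochondrial ribosomal protein genes was not tested.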

How the data were processed

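RNA of P9 cochlear sensory epithelium was sequenced by the authors from 3 Kir2.1-OE and 3 control pools. Poly(A) RNA was enriched, reads were mapped to mm10 in the nf-core RNA pipeline with standard parameters, and the deposited values are the expected counts per gene estimated by Salmon, not divided by length or depth. Versions of these tools, the gene annotation and the strand setting are not given in the sources used here. Counts were rounded (6.95% were not whole) and tested with edgeR 4.0.16 (TMM, filterByExpr, quasi-likelihood F test, Benjamini-Hochberg over 15303 genes) in R 4.3.3. The thresholds were an adjusted p of 0.05 and, for called genes, a 1.5-fold change. On counts simulated for this comparison over 15208 genes, the test found 164 of 200 changed genes and called 10 unchanged genes. Only those 200 genes differed in the simulation, and it held no length trend. In the data 23.5% of genes tested were lower and 27.3% higher, so these rates need not hold there.

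Lengths, GC content and positions came from GENCODE vM21 (GRCm38, the mm10 build) and curated RefSeq transcripts, and all 77 genes matched by symbol. Length and GC offsets were loess fits (span 0.4) within each library. Alternatives were DESeq2 1.42.0, limma-voom 3.58.1, other scalings and filters, the offsets, a replicate block and leaving out each pool. Genes were named by rule: the 5 lowest and 5 highest log2 fold changes, the 3 most and 2 least abundant per length in each subunit, the Mrps18 paralogs, and Mrps30 and Mrps36. The members and lists were chosen with earlier results of these data known. The column header of control replicate 1 carries another replicate number than its label, and the label was followed. Every pair of pools of the same group differed by more than sampling noise. The labels do not say that pools came from separate litters, so p-values measure the spread between these pools, which may be partly technical. SE values cover that spread at depths of 35430940 to 41205047 assigned reads, at which the least abundant member had a mean of 457 normalized counts in control.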

Additional observations from a re-analysis of the deposited data

How the results depend on the processing

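In every alternative run, 0 genes were called higher, and without offsets all 77 genes stayed below 0. The number called lower, 9, became 20 with upper-quartile scaling, which moved the median of all genes to -0.08, 5 with length and GC offsets on the longest, median or RefSeq transcript (the last chosen after seeing the data), of which 1, 5 and 2 were among the 9, 1 with glmTreat, and 6 to 16 when single pools were left out. DESeq2 and limma-voom kept all 9. The number lower at an adjusted p under 0.05, 68, became 29 with offsets, 23 with offsets and the replicate block, and 22 with RefSeq offsets, and was 56 to 71 with single pools left out. Upper-quartile scaling also turned the balance over all genes to 30.6% lower and 22.9% higher.

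The large subunit median of -0.41 became -0.18 with offsets, -0.18 with offsets and the block and -0.13 with RefSeq offsets, and ranged from -0.47 to -0.37 with single pools left out. The small subunit median of -0.36 became -0.45 (upper quartile), -0.16, -0.17 and -0.11, and ranged from -0.43 to -0.34. The difference between subunits, -0.05, became -0.014 with offsets, -0.0079 with offsets and the block, -0.029 with the median transcript, -0.017 with RefSeq offsets, -0.024 by assembled structure, and -0.059 to -0.030 with single pools left out. It was thus small under every setting. Among the genes named by rule, signs turned with offsets for Mrpl20 (0.095), Mrps6 (0.058), Mrps21 (0.11) and Mrps36 (0.19). The same genes turned with offsets and the block (0.095, 0.057, 0.12 and 0.18), and Mrpl35 turned with the median transcript (0.049). With RefSeq offsets Mrpl20 (0.070), Mrps6 (0.11), Mrps21 (0.13), Mrps18a (0.14) and Mrps36 (0.18) turned. Other genes turned as well: of all 77, 69 stayed below 0 with offsets and 63 with RefSeq offsets. The highest in both was Mrpl22, at 0.19. The cause was not tested.

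The replicate numbers did not pair the pools: the deviations of same-numbered pools correlated at -0.11, -0.23 and -0.21, and no pool correlated best with its own number. With the replicate block 56 genes were lower and 9 were called lower. No pseudogene symbol matched the naming rule, so leaving pseudogenes out changed nothing and gave no value.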
